A study of Mus musculus with 60 samples.

Results

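Brown adipose tissue of female mice was compared between animals lacking Alas1 in brown adipocytes (BAKO, n = 4) and wild-type animals (WT, n = 4). These 8 of the 60 sequenced samples are the tissue samples of a study that otherwise used cultured adipocytes. Each library came from its own animal: BAKO 1, 2, 3 and 5 and WT 1, 3, 4 and 5. Genes were taken if the mean log2 value of either group was at least 4, which left 13497 of the 20109 genes in the table. The Cre driver, the deleted part of the gene, the age of the animals and the genotype of the wild-type animals beyond that name are not given in the sources used here. In a bulk tissue sample, fewer cells of a type and less RNA per cell cannot be told apart.

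Heme is made in steps shared between mitochondria and cytosol, and ALAS1 catalyses the first of them in cells other than red cell precursors, where ALAS2 does so. Heme is a cofactor of respiratory chain complexes and of many cytosolic enzymes, and by binding the repressor BACH1 and the kinase HRI (Eif2ak1) it also acts on transcription and translation. Brown fat is dense in mitochondria and produces heat through the uncoupling protein UCP1, burning fatty acids, glucose and branched-chain amino acids (BCAA).

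All values below are log2 values as deposited, and a change is the BAKO mean minus the WT mean, given with the standard error (SE) of limma's moderated test. A gene is called, and is said to have risen or fallen, where the Benjamini-Hochberg adjusted p over all 13497 genes was under 0.05. All 12 brown adipocyte markers listed, among them Ucp1, Cidea and Zic1, were measured in every library, the lowest at 7.37. The mitochondrially encoded genes held 27.1 to 30.1% of each library. Skeletal muscle markers stood apart in BAKO 3, at 0.568% of the library, and in WT 4, at 0.0424%, against 0.0154 to 0.0269% in the other libraries. BAKO 3 and BAKO 5 had the lowest median correlations with the other libraries, 0.9832 and 0.9878, against 0.992 to 0.9939.

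Alas1 was the gene with the largest difference among those called. It measured 10.15, 10.18, 10.45 and 10.61 in the BAKO animals and 12.79, 12.90, 12.73 and 12.97 in the WT animals. Every BAKO animal was therefore far below every WT animal, and Alas1 fell by 2.50 (SE 0.113, limma adjusted p = 1.34e-05), which is 5.66-fold on the deposited scale. The change lay between -2.59 and -2.43 whichever library was left out and was called each time. Transcript was still measured in all 4 BAKO animals. Other cells of the tissue, brown adipocytes that kept the gene and RNA from undeleted parts of it cannot be told apart here, and the source was not tested. The protein-coding genes tested nearest to Alas1, which are Ppm1m, Twf2, Poc1a, Dusp7 and Rpl29, had changes between -0.27 and 0.20 and adjusted p from 0.504 to 0.886.

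The other 8 heme synthesis genes tested were not called, and their changes ran from -0.45 to 0.11. In the order of the pathway, Alad differed by -0.05, Uros by 0.11, Urod by -0.10, Cpox by -0.01, Ppox by -0.10 and Fech by -0.15. Uros, the uroporphyrinogen III synthase, was the only one of these 6 whose groups did not overlap, at 9.49 to 9.58 in BAKO and 9.35 to 9.48 in WT (adjusted p = 0.701). Groups did not overlap for 5.59% of all genes tested. Alas2, the red cell form of the first enzyme, measured 7.64, 7.45, 7.09 and 8.17 in BAKO and 7.55, 7.46, 8.64 and 8.49 in WT. These ranges overlapped, and Alas2 stood highest in the WT animals that also had the most globin RNA. The erythroid marker list, which holds Alas2, made up 0.171% of the library in both WT 4 and WT 5 and 0.0535 to 0.129% in the other 6.

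**Figure D1:**
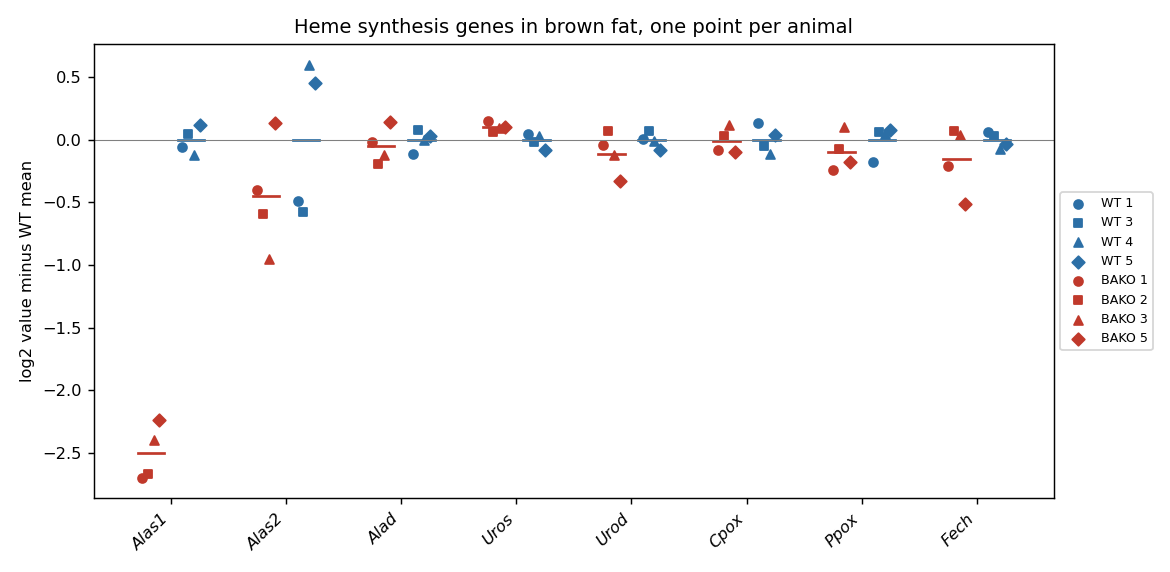
Log2 value of 8 heme synthesis genes minus the WT mean of each, 1 point per animal, BAKO in red and WT in blue, with a bar at each group mean. Alas1 is far below the WT mean in every BAKO animal, while the other genes lie around 0 and Alas2 varies between animals of both groups.

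Genes that handle heme and iron downstream were measured without a call. Of 17 genes of heme transport and breakdown none was called and 1 was higher at an unadjusted p under 0.05, with a median change of -0.00, and heme oxygenase 1 (Hmox1) ranged from 8.27 to 9.63 in BAKO and from 8.30 to 9.68 in WT. Of 20 genes of iron uptake, storage and export none was called either, and 2 were higher and 2 lower at that p. The iron regulatory protein and cytosolic aconitase Aco1 was lower in BAKO, at 11.96 to 12.38 against 12.49 to 12.57, a change of -0.39 (SE 0.0909, adjusted p = 0.196). Hephaestin (Heph), a ferroxidase of iron export, was higher, at 7.33 to 7.49 against 6.86 to 7.19, a change of 0.42 (adjusted p = 0.2). Both genes separated the groups without overlap, as did 5.59% of all genes tested, and neither passed the test. Over all genes tested, 4.36% were higher and 4.33% lower at an unadjusted p under 0.05. Among 23 heme-binding proteins none was called, 2 were higher at an unadjusted p under 0.05, and the cytochrome P450 Cyp1b1 had the smallest adjusted p, 0.154, with a change of 0.47.

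Over all genes, 15 were called, which is 0.111% of those tested. Of them 7 rose and 8 fell, 5 rose at least 2-fold and 2 fell at least 2-fold. The groups did not overlap for any of the 15, as for 5.59% of all genes tested. At an unadjusted p under 0.05, 4.36% of genes were higher and 4.33% lower in BAKO. The median change over all genes was 0.00, with a median SE of 0.108. The count rests on single libraries: Alas1 was the only gene called without BAKO 1, BAKO 3, WT 1, WT 3 or WT 4, each left out alone. Without BAKO 2, 7 genes were called, 13 without BAKO 5 and 16 without WT 5. These counts include genes outside the 15, of which 9, 6 and 3 lost their call, in the same order.

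**Figure D2:**
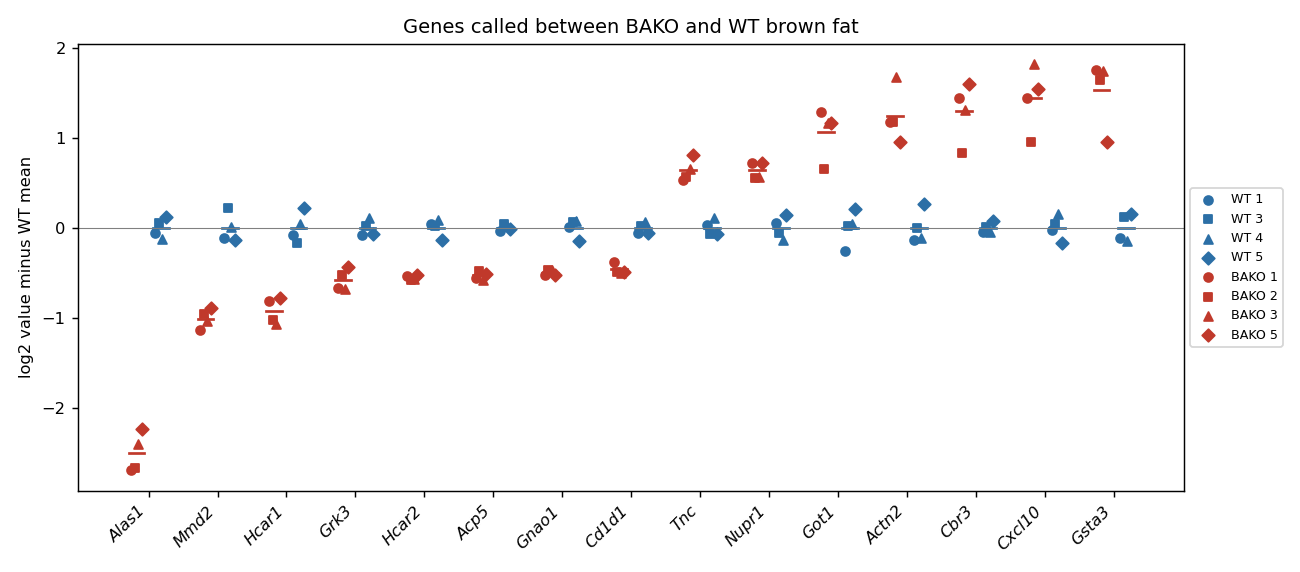
Log2 value minus the WT mean for the 15 called genes, 1 point per animal, ordered by change, with a bar at each group mean. BAKO animals (red) and WT animals (blue) do not overlap in any of them, and Gsta3 stands lower in BAKO 5 than in the other 3 BAKO animals.

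The largest rise was that of Gsta3. Gsta3, a glutathione S-transferase, measured 8.70, 8.58, 8.69 and 7.90 in BAKO and 6.83, 7.06, 6.79 and 7.09 in WT. It rose by 1.52 (SE 0.177, adjusted p = 0.0167), and BAKO 5 was the lowest BAKO animal yet above all WT animals. Gsta3 has close relatives whose reads can be shared in transcript assignment, and such sharing was not tested. Gsta4, the other alpha-class member tested, differed by -0.14, which does not bear on that sharing. Cbr3, a carbonyl reductase, measured 9.39, 8.77, 9.25 and 9.54 in BAKO and 7.89, 7.95, 7.89 and 8.02 in WT, a rise of 1.30 (SE 0.148, adjusted p = 0.0167). All 4 WT animals lay within a narrow band that no BAKO animal reached. Left out one library at a time, Gsta3 was called in 2 of 8 fits and Cbr3 in 3 of 8, with changes of 1.45 to 1.71 and 1.20 to 1.45.

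Both genes belong to a list of 23 targets of NRF2 and BACH1, a transcriptional activator and a heme-regulated repressor that share binding sites. These were the 2 list members called, 6 were higher and 0 lower at an unadjusted p under 0.05, and the list's median change was 0.03. Srxn1, which restores peroxiredoxins, was 10.57 to 10.92 in BAKO and 10.05 to 10.47 in WT, a change of 0.48 (adjusted p = 0.207). Nqo1, a quinone reductase, was 6.31 to 6.77 against 5.89 to 6.13, a change of 0.50 (adjusted p = 0.209). The light-chain ferritin Ftl1 differed by 0.46 (adjusted p = 0.433), and like Srxn1 and Nqo1 it did not overlap between groups. The glutamate-cysteine ligase subunits Gclc and Gclm and Hmox1 differed by 0.03, 0.12 and -0.14. The list mean was 0.21, 0.12, 0.23 and 0.09 above the WT mean in BAKO 1, 2, 3 and 5 and ran from -0.10 to 0.10 in the WT animals.

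Rises also came from the integrated stress response and the amino acid lists. Nupr1, a small nuclear protein induced by stress, measured 9.86, 9.70, 9.71 and 9.86 in BAKO and 9.19, 9.08, 9.00 and 9.28 in WT. It rose by 0.64 (SE 0.0871, adjusted p = 0.0381). Got1, the cytosolic aspartate aminotransferase, measured 10.15, 9.52, 10.03 and 10.03 in BAKO and 8.60, 8.88, 8.90 and 9.07 in WT, a rise of 1.07 (SE 0.148, adjusted p = 0.0423). BAKO 2 was the lowest BAKO animal for Got1 and still above every WT animal. Its mitochondrial counterpart Got2 was higher by 0.58 with overlapping groups (adjusted p = 0.349). With one library left out, Nupr1 was called in 1 of 8 fits and Got1 in 2 of 8.

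The integrated stress response list holds genes that ATF4 and related factors switch on when translation is slowed by an eIF2 kinase. Of its 32 genes tested Nupr1 was the 1 called, 29 had a change above 0, 16 were higher and 1 lower at an unadjusted p under 0.05, and the median change was 0.30 against 0.00 over all genes. By library the list mean was 0.39, 0.20, 0.35 and 0.68 above the WT mean in BAKO 1, 2, 3 and 5, and it was -0.08, 0.06, 0.09 and -0.07 in the WT animals. The groups did not overlap in this mean, and BAKO 5 was highest. The macrophage list mean, 0.57, -0.08, 0.13 and 1.03 in BAKO 1, 2, 3 and 5, had the same order of animals, and its part in the stress list was not tested. Without BAKO 3 and BAKO 5 the number higher at an unadjusted p under 0.05 was 9, with a median change of 0.23.

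Trib3, a pseudokinase induced by ATF4 and CHOP, measured 9.73, 9.68, 9.72 and 10.36 in BAKO and 8.65, 9.09, 8.75 and 8.50 in WT. Its change of 1.12 (SE 0.172) narrowly missed the threshold at adjusted p = 0.0596 and was called without BAKO 5, at 0.96 (adjusted p = 0.0442). Phgdh, the first enzyme of serine synthesis, was 9.29 to 9.66 against 8.61 to 9.04, a change of 0.71 (adjusted p = 0.0839), and Psat1, the next enzyme, differed by 0.92 (adjusted p = 0.343). Mthfd2, a mitochondrial folate enzyme, was 8.48 to 9.66 against 7.54 to 8.28, a change of 1.20 (adjusted p = 0.196).

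Regulators and a secreted factor of the stress list were not called. Atf4 itself was 10.77 to 11.62 in BAKO and 10.60 to 10.91 in WT, Ddit3 (CHOP) differed by 0.49 without overlap (adjusted p = 0.526), and Eif2ak1, the heme-regulated kinase, differed by -0.01. The secreted factor Gdf15 measured 7.64 in BAKO 5 and 5.00 to 5.52 in the other BAKO animals, against 4.81 to 5.22 in WT. Fgf21 was not tested, since it reached at most 3.39 in any library. Of the 22 genes of amino acid and one-carbon metabolism Got1 was the 1 called, 4 were higher and 0 lower at an unadjusted p under 0.05, and the median change was 0.06.

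Promoter sequences are shown for genes of these groups because several of their members were higher in BAKO and the factors named bind known short motifs. They are RefSeq windows of GRCm38.p6, from 250 bases before to 50 after the start of the gene, printed 5′ to 3′ on the gene's own strand with motif matches in capitals. Nupr1 is at chr7:126625421-126625720 (minus strand), Trib3 at chr2:152344011-152344310 (minus strand), Got1 at chr19:43524556-43524855 (minus strand) and Gsta3 at chr1:21240335-21240634 (plus strand). In the first 3 the capitals mark the C/EBP-ATF element TGATGNAA, found on the opposite strand as its reverse complement, and in Gsta3 the core of the antioxidant response element, TGACNNNGC.
Nupr1: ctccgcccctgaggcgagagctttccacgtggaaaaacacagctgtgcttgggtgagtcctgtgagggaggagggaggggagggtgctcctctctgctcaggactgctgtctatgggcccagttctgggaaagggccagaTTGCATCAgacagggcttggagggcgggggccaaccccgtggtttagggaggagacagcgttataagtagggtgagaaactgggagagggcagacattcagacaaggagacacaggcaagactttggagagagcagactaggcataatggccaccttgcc
Trib3: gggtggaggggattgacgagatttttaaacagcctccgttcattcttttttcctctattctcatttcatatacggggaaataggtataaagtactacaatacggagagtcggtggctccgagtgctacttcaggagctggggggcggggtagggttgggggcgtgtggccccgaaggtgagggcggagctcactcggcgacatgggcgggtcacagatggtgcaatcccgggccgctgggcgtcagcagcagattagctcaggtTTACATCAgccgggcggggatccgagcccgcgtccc
Got1: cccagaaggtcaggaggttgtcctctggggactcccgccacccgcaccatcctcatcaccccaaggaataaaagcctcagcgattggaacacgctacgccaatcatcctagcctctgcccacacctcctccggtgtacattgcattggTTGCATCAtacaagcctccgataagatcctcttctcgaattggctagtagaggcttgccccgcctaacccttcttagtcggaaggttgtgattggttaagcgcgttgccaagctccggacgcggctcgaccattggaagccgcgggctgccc
Gsta3: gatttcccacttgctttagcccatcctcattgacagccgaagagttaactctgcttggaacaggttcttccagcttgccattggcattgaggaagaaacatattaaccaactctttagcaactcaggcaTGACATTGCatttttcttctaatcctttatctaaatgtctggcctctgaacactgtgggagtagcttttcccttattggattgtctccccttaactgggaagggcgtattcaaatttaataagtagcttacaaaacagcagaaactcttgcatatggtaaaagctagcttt

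Searched on both strands, TGATGNAA occurred in 8 of 30 windows of the integrated stress response list (26.7%), which cover 26 of its 32 genes, and in 3.97% of all 32851 windows. Besides Nupr1 and Trib3 the holders were Asns, Atf3, Chac1, Pck2, Pycr1 and Vldlr. It occurred in 0 of 24 windows of the NRF2 and BACH1 list and in 1 of 30 of the BCAA list. TGACNNNGC occurred in 9 of 24 windows of the NRF2 and BACH1 list (37.5%), in 6 of 30 of the integrated stress response list (20.0%), in 4 of 30 of the BCAA list (13.3%) and in 12.4% of all windows. The called genes, 12 of which had a window, held the first motif in Nupr1 and Got1 and the second in Gsta3, Cxcl10, Actn2 and Acp5. Cbr3 was not among the holders of either motif, which also holds for any called gene without a window. A match describes the letters and does not show that a factor binds there. The integrated stress response and the NRF2 and BACH1 lists were made of targets of the factors that bind these motifs. A high motif share in them follows from that choice and carries no information on the BAKO animals.

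The remaining rises were a chemokine, a sarcomere protein and a matrix protein. Cxcl10, an interferon-induced chemokine, measured 7.47, 6.98, 7.85 and 7.57 in BAKO and 6.01, 6.07, 6.18 and 5.86 in WT, a rise of 1.43 (SE 0.169, adjusted p = 0.0167). Of the 18 interferon response genes tested it was the 1 called, 4 were higher and 0 lower at an unadjusted p under 0.05, and the median change was 0.33. The list mean differed between animals of one genotype, from -0.07 in BAKO 2 to 0.87 in BAKO 5 and from -0.23 to 0.26 in WT. Without BAKO 5, 1 gene of this list was higher at an unadjusted p under 0.05.

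Macrophage markers were mostly higher in BAKO as well. Of 15 tested none was called, 0 passed an unadjusted p under 0.05, 14 were above 0 and the median change was 0.36, and their summed share was 0.0421, 0.0218, 0.0271 and 0.062% in BAKO 1, 2, 3 and 5 and 0.0179, 0.0189, 0.0275 and 0.0353% in WT. BAKO 2 and BAKO 3, whose macrophage shares lay within the WT range, had Cxcl10 values of 6.98 and 7.85. The part of macrophages in Cxcl10 and in the other interferon and inflammatory genes was not tested. Of 21 cytokines and chemokines listed, 12 passed the filter on group means. None was called, 3 were higher at an unadjusted p under 0.05 and all were above 0. Cxcl1, among these 3, passed only through BAKO, with means of 4.11 in BAKO and 3.79 in WT. Entry through the higher group pulls such counts to that side. Osteopontin (Spp1) measured 7.34, 5.23, 5.79 and 8.13 in BAKO and 5.14 to 5.69 in WT, and the high animals, BAKO 1 and BAKO 5, were those with the highest macrophage shares.

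Actn2, a sarcomeric alpha-actinin, measured 8.58, 8.58, 9.08 and 8.35 in BAKO and 7.26, 7.40, 7.29 and 7.66 in WT, a rise of 1.25 (SE 0.159, adjusted p = 0.0249). Skeletal muscle RNA was present in BAKO 3, where the actin Acta1 reached 14.65, and in WT 4, where it reached 9.69, against 7.58 in BAKO 5 and 5.53 to 5.99 in the other libraries. The 28 muscle markers tested all had a change above 0, with a median of 0.94. None of them was called, and 1 was higher at an unadjusted p under 0.05. Actn2 was highest in BAKO 3, the library with the most muscle RNA. It was 8.58 in BAKO 1 and BAKO 2, whose muscle marker shares were 0.017% and 0.0168%, and 7.29 in WT 4. Without BAKO 3 its change was 1.10 (adjusted p = 0.0502), without BAKO 3 and WT 4 it was 1.06 (adjusted p = 0.251), and with the muscle list mean as a covariate it was 1.17 (adjusted p = 0.042). Tnc, the matrix glycoprotein tenascin C, measured 8.35, 8.39, 8.47 and 8.63 in BAKO and 7.85, 7.75, 7.93 and 7.75 in WT, a rise of 0.64 (SE 0.0945, adjusted p = 0.0461). It was called in 0 of the 8 fits with one library left out.

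**Figure D3:**
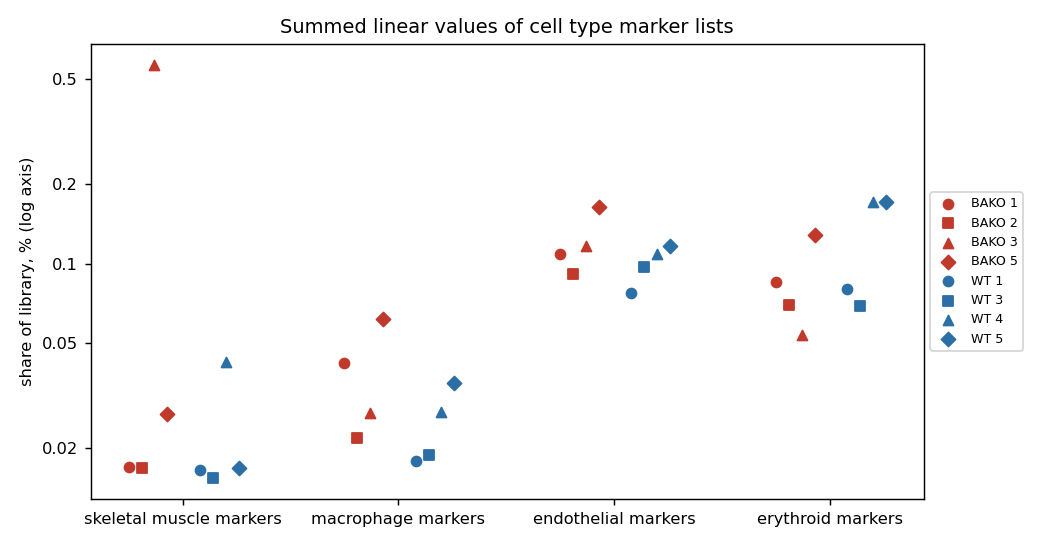
Summed linear values of marker lists as a percentage of each library, on a log axis, 1 point per animal, BAKO in red and WT in blue. Skeletal muscle markers stand at 0.568% in BAKO 3 and 0.0424% in WT 4, and macrophage markers are highest in BAKO 5 and BAKO 1.

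The falls besides Alas1 were smaller and tight within groups. Mmd2, a member of the progestin and adipoQ receptor family, measured 7.39, 7.57, 7.49 and 7.64 in BAKO and 8.42, 8.75, 8.54 and 8.40 in WT and fell by 1.00 (SE 0.106, adjusted p = 0.0167). The lactate receptor Hcar1, which restrains lipolysis in fat cells, measured 7.26, 7.04, 7.0 and 7.29 in BAKO and 7.99, 7.90, 8.11 and 8.29 in WT and fell by 0.93 (SE 0.116, adjusted p = 0.0249). Its neighbour Hcar2, the receptor for beta-hydroxybutyrate and niacin, fell by 0.56 from 6.17 ± 0.0988 to 5.62 ± 0.0259 (SD, n = 4, adjusted p = 0.0461). Both receptors couple to inhibitory G proteins, and all 4 BAKO animals lay below all WT animals for each.

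Gnao1, an inhibitory G protein alpha subunit, fell by 0.50, from 10.81 ± 0.105 to 10.31 ± 0.0339 (SD, n = 4, limma adjusted p = 0.0461). Grk3, a kinase that desensitizes G protein-coupled receptors, fell by 0.58, from 11.11 ± 0.0877 to 10.53 ± 0.116 (adjusted p = 0.0461). Acp5, the tartrate-resistant acid phosphatase, fell by 0.54, from 11.39 ± 0.0339 to 10.86 ± 0.0454 (adjusted p = 0.0167). Cd1d1, which presents lipids to natural killer T cells, fell by 0.46, from 11.75 ± 0.0644 to 11.29 ± 0.054 (adjusted p = 0.0461). With one library left out at a time, these 7 genes were called in 0 (Cd1d1) to 3 (Mmd2, Acp5) of 8 fits, with no change of direction.

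No gene of the thermogenic and brown adipocyte list was called among 28 tested. The uncoupling protein Ucp1 measured 16.86, 16.67, 15.98 and 16.39 in BAKO and 16.89, 16.81, 16.65 and 16.68 in WT. BAKO 1 and BAKO 2 lay within the WT values and BAKO 3 was lowest, so that the change of -0.28 (SE 0.182, 95% confidence interval -0.69 to 0.13, adjusted p = 0.7) became -0.12 without BAKO 3. The interval leaves room for a fall and for a small rise. Of the list, 22 genes were below 0, 8 were lower and 0 higher at an unadjusted p under 0.05, and the median change was -0.19. It was -0.05 without BAKO 3 and BAKO 5, with 8 lower and 1 higher at that p.

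The members with the smallest p were Ffar4, Nrg4, Otop1 and Plin5. Ffar4, a receptor for long-chain fatty acids, was 7.61 to 8.17 in BAKO and 8.46 to 9.21 in WT, a change of -0.92 (adjusted p = 0.13). The proton channel Otop1 was 10.99 to 11.25 against 11.41 to 11.79, a change of -0.45, and the secreted factor Nrg4 was 11.19 to 11.48 against 11.60 to 11.76, a change of -0.38 (adjusted p = 0.174 for both). Plin5, a lipid droplet protein, was 12.06 to 12.42 against 12.45 to 12.69, a change of -0.34 (adjusted p = 0.285). The β3-adrenergic receptor Adrb3 and the brown fat regulator Prdm16 differed by -0.62 and -0.49 (adjusted p = 0.391 and 0.367). The coactivator Ppargc1a and the subunits Cox8b and Cox7a1 differed by -0.02, 0.03 and -0.02, and Cidea by 0.15.

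Fat storage and oxidation genes lay mostly below 0, and none was called. Of 22 lipid droplet and lipolysis genes 8 were lower and 1 higher at an unadjusted p under 0.05, with a median change of -0.24, which was -0.097 after quantile normalization. Monoacylglycerol lipase (Mgll) was 13.37 to 13.45 in BAKO and 13.76 to 13.96 in WT, a change of -0.46 (SE 0.0746, adjusted p = 0.0741). Perilipin 1 (Plin1) and the lipase cofactor Abhd5 differed by -0.37 and -0.32 without overlap. Fabp3, the heart-type fatty acid carrier, went the other way, at 13.65 to 14.78 against 12.83 to 13.76, a change of 0.98 (adjusted p = 0.279). Of 20 fatty acid oxidation genes 19 were below 0 and 6 were lower at an unadjusted p under 0.05, with a median of -0.19 (-0.076 after quantile normalization), among them the mitochondrial carnitine palmitoyltransferase Cpt2 (-0.23), without overlap.

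Adipocyte secretion products and fatty acid synthesis showed wide spreads. Retinol-binding protein 4 (Rbp4) measured 10.53, 10.52, 9.69 and 9.36 in BAKO and 11.79, 11.86, 11.84 and 11.06 in WT, a change of -1.61 (SE 0.282, adjusted p = 0.0964). The groups did not overlap, and the difference was larger than that of any called gene but Alas1, with a larger spread. Adipsin (Cfd) was 13.43 to 14.38 against 14.55 to 15.22, a change of -0.86 (adjusted p = 0.268). Of 22 general adipocyte genes none was called and 6 were lower at an unadjusted p under 0.05, with a median of -0.22 (-0.077 after quantile normalization). Fatty acid synthase (Fasn) was 17.24 in BAKO 5 and 18.22 to 18.54 in the other BAKO animals, against 18.44 to 19.17 in WT, and the list mean of 15 synthesis genes was -0.92 in BAKO 5 and -0.40 in WT 5.

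The catabolism of branched-chain amino acids, a pathway the series follows, had 0 of 30 genes called. Of these 24 were below 0, 3 were lower and 0 higher at an unadjusted p under 0.05, and the median change was -0.15. The largest single change was -0.27, in Acadsb, the short/branched-chain acyl-CoA dehydrogenase. Bcat2, the aminotransferase of the first step, measured 11.54 to 11.66 in BAKO and 11.44 to 11.70 in WT (change 0.03). Of the branched-chain ketoacid dehydrogenase, Bckdha differed by -0.15, Bckdhb by 0.15, Dbt by 0.04 and Dld by -0.11, and its inactivating kinase Bckdk by -0.18 (adjusted p = 0.556). Further down, Ivd, the leucine-branch dehydrogenase, differed by -0.24 and Mccc1, a subunit of the next leucine enzyme, by -0.20. The propionyl-CoA carboxylase subunits Pccb and Pcca differed by -0.24 and -0.01, and Slc25a44, the mitochondrial BCAA carrier, by -0.20.

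BAKO 5 was the lowest animal of this list. The BCAA list mean was -0.07, 0.10, -0.07 and -0.37 in BAKO 1, 2, 3 and 5, against -0.11 to 0.14 in WT, so that 3 of the 4 BAKO animals lay within the WT range. Without BAKO 3 and BAKO 5 the list's median change was 0.012. Respiratory chain and TCA cycle genes had the same layout: BAKO 5 was lowest of all 8 animals in complexes I, II and III, IV and in the TCA cycle, at -0.23, -0.37, -0.23 and -0.36, while BAKO 2 lay at -0.01 to 0.12. BAKO 3 was also below every WT animal in complexes II and III and IV, at -0.15 and -0.14, and BAKO 1 in the TCA cycle, at -0.14. BAKO 5 had the highest macrophage, endothelial and extracellular matrix list means of all 8 animals, at 1.03, 0.49 and 0.53, and their part in its low values was not tested. None of the 36 complex I, 13 complex II and III, 19 complex IV and 19 TCA genes was called. None had an unadjusted p under 0.05 either. In the same order, 28, 13, 16 and 16 were below 0, with medians of -0.03, -0.11, -0.13 and -0.11.

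**Figure D4:**
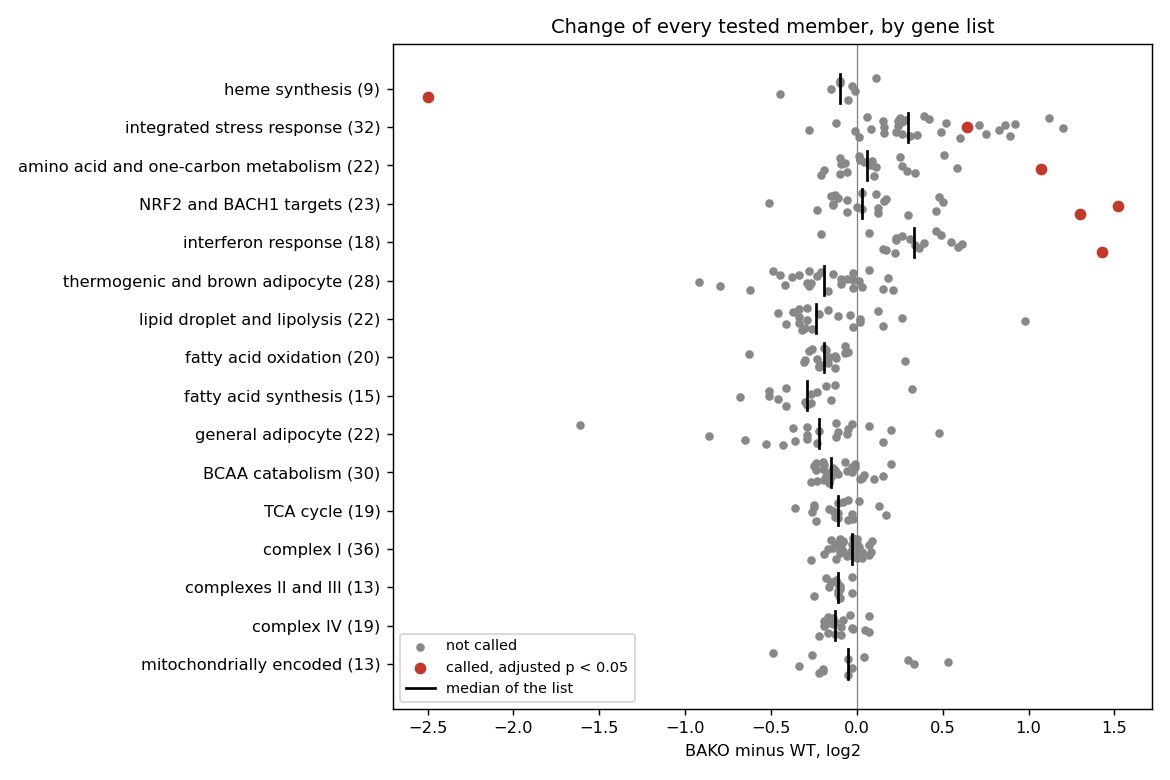
Change of every tested gene (BAKO minus WT, log2) in 16 gene lists, with the number of genes in parentheses, called genes in red and a line at the list median. Stress, NRF2 and interferon lists extend to the right, and thermogenic and lipid lists lie mostly left of 0. The lists of complexes I, II and III, and IV lie between -0.27 and 0.09, mostly below 0. Mitochondrially encoded genes lie between -0.49 and 0.53.

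**Figure D5:**
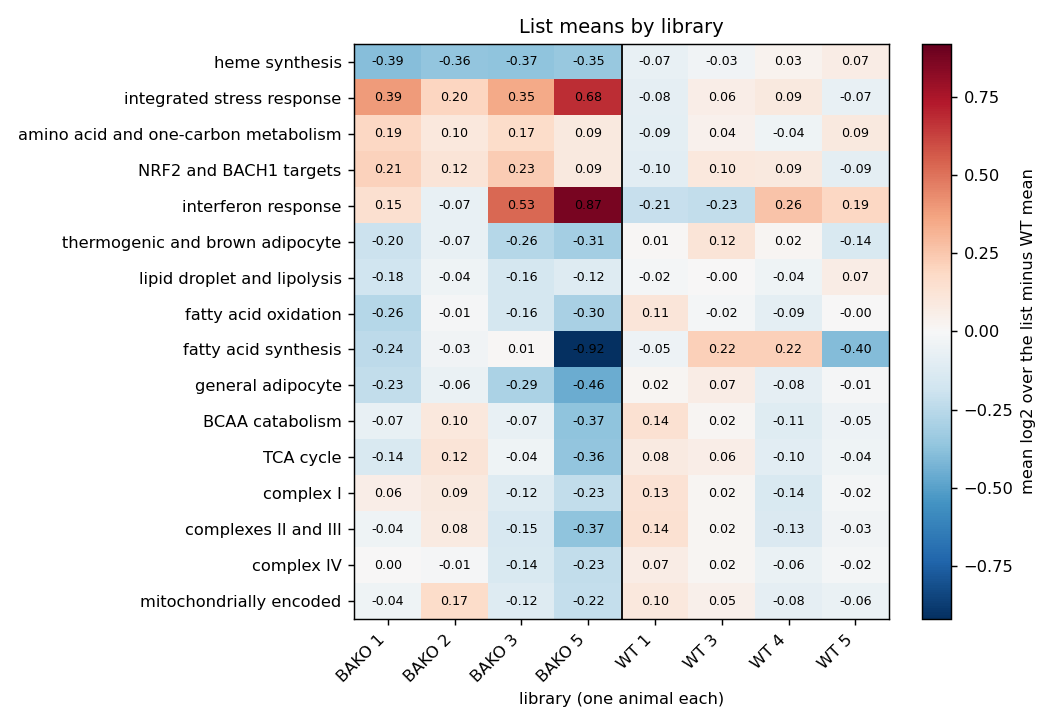
Mean log2 value of each list minus its WT mean, by library, with the value in each cell and BAKO left of the black line. The integrated stress response is above 0 in all 4 BAKO animals, and the BCAA, TCA cycle and respiratory chain lists are lowest in BAKO 5.

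None of the 13 mitochondrially encoded transcripts was called, and 1 was higher and 1 lower at an unadjusted p under 0.05. mt-Nd2 measured 19.20 to 19.31 in BAKO and 18.67 to 18.76 in WT, a change of 0.53 (SE 0.15, adjusted p = 0.309), and mt-Nd1 measured 19.33 to 19.65 against 19.07 to 19.24, a change of 0.33 (adjusted p = 0.646). Both separated the groups. mt-Nd6, encoded on the other strand of the mitochondrial genome, was 15.18 to 16.08 against 16.12 to 16.44, a change of -0.49 (adjusted p = 0.494). The library preparation is not stated to keep strand, so reads of mt-Nd6 and of RNA antisense to it cannot be told apart. mt-Nd2 was called without the mean-variance trend (adjusted p = 0.0338) and without a filter on low values (adjusted p = 0.0204).

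Creatine and metallothionein genes were higher without a call. Creatine kinase B (Ckb), part of a creatine cycle described in brown fat, measured 12.18, 11.97, 12.08 and 12.68 in BAKO and 10.69, 11.22, 11.10 and 11.56 in WT, a change of 1.08 (SE 0.194, adjusted p = 0.105). The groups did not overlap. The creatine transporter Slc6a8 differed by 0.36 (adjusted p = 0.434), and all 8 genes of the creatine and calcium cycling list were above 0. The list mean was highest in BAKO 3, at 0.68, the library with the most skeletal muscle RNA, where the muscle gene Ckmt2 was 7.11 against 3.77 to 4.07 in the other BAKO animals. Without BAKO 3 and BAKO 5, Ckmt2 differed by -0.32 and Gatm by -0.11, and with the muscle covariate Ckmt2 differed by -0.02. The metal-binding Mt2 was 11.03 to 11.37 against 9.96 to 10.66, a change of 0.85 (adjusted p = 0.0839), and Mt1 differed by 0.31 with overlapping groups.

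Succinylacetone (SA), an inhibitor of the heme synthesis enzyme ALAD, had been given to primary brown adipocytes in culture, and those values are set beside the tissue values. SA against Vehicle (n = 4 each) called 41.4% of 12799 genes. The tables were normalized separately and no difference between the settings was tested. Alas1 changed by 1.29 with SA and -2.50 in BAKO. Of the 15 genes called in BAKO, 14 were tested in SA and 13 called there, 8 in the same direction and 5 in the opposite one. Alas1 is among these 5, and its fall in BAKO was set by the deletion. Gsta3 and Cbr3 rose by 2.24 and 2.07 with SA, next to 1.52 and 1.30 in BAKO, and 20 of the 23 NRF2 and BACH1 targets rose with SA. Got1, which rose in BAKO, fell with SA by 0.37. Ucp1 fell by 1.90 and Pcca by 0.59 with SA, next to -0.28 and -0.01 in BAKO. Hcar1 differed by 0.01 with SA (adjusted p = 0.914).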

How the data were processed

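RNA of brown fat from 8 female mice was sequenced from poly-A RNA, per the labels' protocols. Per the submitters' processing notes the authors used kallisto, DESeq2 and the build GRCm39, with versions and roles not given in the sources used here. The authors deposited 1 table for these libraries, named as raw counts, but its values are log2 values, from -1.37 to 21.28 with 0 whole numbers. The base 2 is inferred from library totals of 24.7 to 29.9 M after undoing the logarithm. Low genes vary little (median SD 0.0208 for means under 1, 0.151 for means of at least 9), so their fold changes are understated. Depth is unknown, and no detection limit is given. Symbols came from GENCODE M21 names (99.63% of identifiers).

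limma 3.58.1 in R 4.3.3 fitted group means with a mean-variance trend, two-sided, on the deposited values, with 95% confidence intervals. The fit was tested on simulated data. The p-values rest on the spread between 4 animals a group, drawn by the moderated test towards the spread typical of genes at that level. For mt-Nd2 the SE of 0.15 was larger than the SD of either group, 0.0579 in BAKO and 0.0387 in WT. SA and Vehicle libraries were fitted in their own table, in a fit of 4 groups.

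The members and gene lists were chosen with earlier results of these data known. Lists are described by counts and medians. Named are the heme synthesis genes, Ucp1, up to 12 rises and 12 falls among called genes with a mean of at least 6 and no overlap, up to 4 genes per list by smallest adjusted p, and BCAA genes. Hcar2, the neighbours of Alas1, Gsta4, Hmox1, Gclc, Gclm, Psat1, Atf4, Ddit3, Eif2ak1, Gdf15, Fgf21, Adrb3, Prdm16, Ppargc1a, Cox8b, Cox7a1, Cidea, Acta1, Zic1 and the motif holders were named after their values were seen. The motifs were chosen likewise. Genes that the rule names and the text does not print include 2 that are not reported here.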

Additional observations from a re-analysis of the deposited data

Results flagged for a closer look

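In groups of 4 animals, a value was picked out where its gap to the nearest other value, divided by the group's range, exceeded Dixon's 95% critical value, and 23 of 326 groups looked at had one. Chance does this in about 1 in 20 groups. Skeletal muscle accounts for 9 of them: the marker share was 0.568% in BAKO 3 and 0.0424% in WT 4, the giant sarcomere protein Ttn was 12.86 and 8.40 in these 2 libraries, Mybpc1 11.40 and 6.27, the mitochondrial creatine kinase Ckmt2 7.11 and 4.91, and Tnnt1 10.36 in BAKO 3. In BAKO 5, Gsta3 was low at 7.90, and Trib3 at 10.36, Bcat1 at 4.48 and the B cell marker share at 0.0124% were high. In BAKO 1, Cd1d1 at 11.37 and Bckdhb at 12.22 were high.

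Among WT animals, WT 1 was low for Ppox at 9.76, Cox10 at 9.69 and the Schwann cell and nerve marker share at 0.0153%, and high for Slc30a1 at 8.98 and mt-Nd3 at 16.31. WT 5 was low for Rbp4 at 11.06 and Cldn5 at 9.94, and WT 4 was low for Idh2 at 12.86. All of these are log2 values except the shares.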

How the results depend on the processing

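Alas1 was called under all 19 alternatives, with changes from -2.68 to -2.43. The number of genes called, 15, ran from 1 to 16 when one library was left out. It was 1 without BAKO 3 and WT 4 together, 4 without BAKO 3 and BAKO 5, and 8 with skeletal muscle as a covariate. Among the 15 genes, 14, 12 and 8 lost their call, in the same order, so the totals of 4 and 8 include other genes. Got1, Nupr1 and Tnc were among those lost with the covariate (limma adjusted p = 0.0964, 0.0508 and 0.098). The replicate numbers 1, 3 and 5 occur in both groups and are not stated to pair animals. Correlations of deviations were 0.317, -0.0201 and 0.48 between libraries of the same number. Between libraries of different numbers they ran from -0.508 to 0.575. The labels also give animal IDs, which entered no fit. BAKO 2 and WT 1, with consecutive IDs, had the highest correlation, 0.575, and BAKO 5 and WT 5, also consecutive, had 0.48. BAKO 3 had 0.469 with WT 4 and -0.0201 with WT 3, which is nearer to it in ID. Whether IDs follow litter or handling is not stated, and a block by ID was not tested. So few values cannot decide whether the animals are paired. With the replicate number as a block 3 genes were called, and in the same 6 libraries without the block 5, a setting added after the data were seen. Filters, trend, centring, quantile normalization and removal of mitochondrially encoded genes gave 12 to 15. The cause was not tested. No called gene changed sign, while 26 of 137 named genes that were not called did so in at least 1 alternative. Trib3 was called with a group mean of at least 6 (adjusted p = 0.0447). Under quantile normalization the median change was -0.076 for fatty acid oxidation, -0.097 for lipid droplet and -0.077 for general adipocyte genes. Depth is unknown, so small changes of low genes were not detectable at a stated limit.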

Other observations

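Vessel and matrix genes gave values not described above. Of 14 endothelial markers none was called and 4 were higher at an unadjusted p under 0.05, and the tight junction protein Cldn5 measured 11.29, 10.65, 10.40 and 11.67 in BAKO against 9.94 to 10.44 in WT, a change of 0.71 (limma adjusted p = 0.447). The endothelial marker share was 0.109, 0.0916, 0.117 and 0.164% in BAKO and 0.0775 to 0.117% in WT. Of 24 extracellular matrix genes none was called and 3 were higher at that p, among them thrombospondin 1 (Thbs1, change 0.60) and lysyl oxidase (Lox, change 0.39).

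Among 18 circadian clock genes none was called and 2 were higher at an unadjusted p under 0.05. The repressor Nfil3 measured 8.31 to 9.26 in BAKO and 7.75 to 8.44 in WT (change 0.75), and the activator Arntl 6.48 to 7.27 against 6.23 to 6.60 (change 0.53). Both overlapped between groups. The time of day of collection is not given in the sources used here.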
